A study of Mus musculus with 18 samples.

Results

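Bile and organic anion transporters of the hepatocyte were taken as 10 named genes, read from every non-control probe whose gene symbol in the array files is one of those names. The array held 12 such probes among 39429 non-control probes, and the 10 genes stood among 31709 gene names. Livers came from males of the inbred strain C57BL/6J, 13 weeks old and fed a high-fat diet for the last 5 weeks. The LIN diet (8 mice) held linseed oil, whose fat was 66.7% polyunsaturated, mostly alpha-linolenic acid (49.7%), 22.5% monounsaturated and 9.7% saturated. The PALM diet (10 mice) held palm oil, whose fat was 8.8% polyunsaturated, 34.8% monounsaturated and 55.6% saturated. Both diets supplied 51.1% of energy as lipid, 32.1% as carbohydrate and 16.7% as protein, so every liver was that of a mouse on a high-fat diet and none was from a low-fat control. The comparison of LIN with PALM livers asks how the carriers respond to the kind of fat. Mice were housed collectively, per the labels, and the labels do not say which mice shared a cage.

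Hepatocytes are polarised cells. Carriers in the basolateral membrane, which faces the blood, take up bile acids, bilirubin, hormones and drugs, and others in the canalicular membrane pump bile acids, phospholipid and conjugates into bile. A further set of basolateral exporters returns conjugates and bile acids to the blood, and is known from mouse studies of cholestasis for being induced when the canalicular route is impaired. Nuclear receptors for bile acids, drugs and fatty acids control many of these genes in mouse liver.

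The members fall into 3 canalicular exporters (Abcb11, Abcc2, Abcb4), 2 basolateral exporters (Abcc3, Abcc4) and 5 basolateral uptake carriers (Slc10a1, Slco1b2, Slco1a1, Slco1a4, Slco2b1). Of the 10, the exporter Abcc3 was the member that rose in LIN livers. No other member passed the test in either direction. Each value below is the log2 intensity of a probe relative to the 75th percentile of its array, so that 0 is the signal of a probe at that percentile. Such values compare diets within a probe and do not rank genes by abundance.

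Each gene was read through a probe of 60 bases, and stretches of 30 bases or fewer are shown for the probes on which the results turn. The Abcc3 probe (chr11:94204612-94204671, minus strand, mm9) carries the difference between the diets. In the probe's bases 30 to 59 the capitals mark AATAAA, the letters of the common polyadenylation signal.
Abcc3: gtccactgatgaAATAAAgctgtagtcaac
On the given strand 12.6% of all probes held these 6 letters, as did 1 of the 12 member probes. On the other strand they stood in 4.03% of all probes and again in 1 of the 12.

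Slc10a1 had 2 probes, which did not measure the same thing. The probe at chr12:82061470-82061529 (minus strand, mm9) lists Slc10a1 alone, and its bases 16 to 45 are shown. The other, at chr12:82056539-82056598 (minus strand), also lists 4930402H24Rik, Med16 and Spc24. It shares a run of at least 20 bases with 3 probes of other genes (Galns, H4c9 and Nxnl1), marked by the capitals in its bases 1 to 30.
Slc10a1, own probe: tgttatcactcgtcatggttctcattcctt
Slc10a1, other probe: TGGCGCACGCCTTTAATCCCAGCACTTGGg
The shared letters resemble the B1 element, a short interspersed repeat of the mouse genome. Slc10a1 is therefore described from its own probe.

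Slco2b1 also had 2 probes (chr7:106806923-106806982 and chr7:106806901-106806960, minus strand, mm9), which overlap by 38 bases, so they are not independent readings. The capitals mark a stretch that both probes hold.
Slco2b1, both probes: TATACATACAGCTGATTATTAAATTTGTCT
Slco1a4 and Slco1a1 are neighbours in a cluster of related genes on chromosome 6, and their probes had no run of 20 bases in common with any other probe. Their middle 30 bases are given. The probes were not compared with the transcripts of related genes, so whether a probe also reads a relative was not tested.
Slco1a4: gtgattgcctaatacatgtgaggccctgag
Slco1a1: tactttcttatactcaggatgcctctgact
The Slco1a4 probe lies at chr6:141754675-141754734 and the Slco1a1 probe at chr6:141856493-141856552 (both minus strand, mm9). The files tie each probe to a RefSeq transcript, and whether a probe lies in coding sequence or in a UTR was not analysed here.

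On each array 17258 to 22445 probes were well above background and how many arrays there are, together with how far a probe stands above background, sets the precision. The arrays were taken as lying on 5 slides that each held both diets. Slide 1 rests on a common scan, as its arrays have no barcode. Markers of hepatocytes were bright in all 18 samples: the 8 markers listed, Alb and Apoa1 among them, averaged 7.12 to 7.72 in LIN livers and 7.24 to 7.59 in PALM livers. Among markers of cells that also carry some of these transporters, 5 of 7 cholangiocyte genes were measured, averaging −1.86 to −1.31 in LIN livers and −1.96 to −0.95 in PALM livers, and 2 of 5 kidney tubule genes, averaging −3.97 to −2.71 in LIN livers and −3.88 to −2.95 in PALM livers. Krt7 and Epcam of the cholangiocyte list, Umod, Slc22a8 and Kap of the kidney list and all 4 adipocyte markers were too dim to be kept. No measured marker of the 8 lists of cell types passed the test for diet, and the part of other cells in the results was not tested. In whole liver, fewer cells of a type and less RNA per cell cannot be told apart.

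Abcc3 (MRP3) exports glucuronides and bile acids from the hepatocyte to the blood. With every spot kept its level was 4.65 at lowest, 4.95 at the median and 5.28 at highest in LIN livers, against 3.60, 3.89 and 4.49 in PALM livers. All 8 LIN livers lay above all 10 PALM livers. Groups without overlap and higher on LIN were found for 0.169% of all genes with these spots. The means were 4.99 ± 0.21 (SD, n = 8) in LIN livers and 3.93 ± 0.29 (SD, n = 10) in PALM livers.

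The image software had marked the Abcc3 spot as uneven or as an outlier on 2 LIN arrays and 1 PALM array, and the comparison across all genes left such spots out. Abcc3 rose 2.20-fold in LIN livers (1.13 ± 0.12 on the log2 scale, SE, 95% interval 0.88 to 1.39, adjusted p = 0.000271 by limma over all genes, n = 6 LIN and 9 PALM). With the marked spots kept it was 1.06 ± 0.12 (adjusted p = 0.000149). Across all genes 0.57% rose and 0.188% fell by the same test, and among the members 1 of the 8 that could be tested rose and 0 fell. Of those 8, 3 had an unadjusted p under 0.05, as did 10.2% of all genes. The members were chosen with earlier results of these data known, so these counts are a description. With marked spots kept all 10 members could be tested and Abcc3 was again the one called, beside 0.683% of all genes that rose.

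As the groups did not overlap, Abcc3 had to be higher on LIN within each slide, and only the size there is further information. The LIN mean exceeded the PALM mean by 1.14 on slide 1, 1.26 on slide 2, 1.03 on slide 3, 0.90 on slide 4 and 0.79 on slide 5. That every LIN array lay above every PALM array of its slide follows from the same lack of overlap. With slide as a fixed block the difference was 1.11 ± 0.13 (adjusted p = 0.00376, limma).

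**Figure D1:**
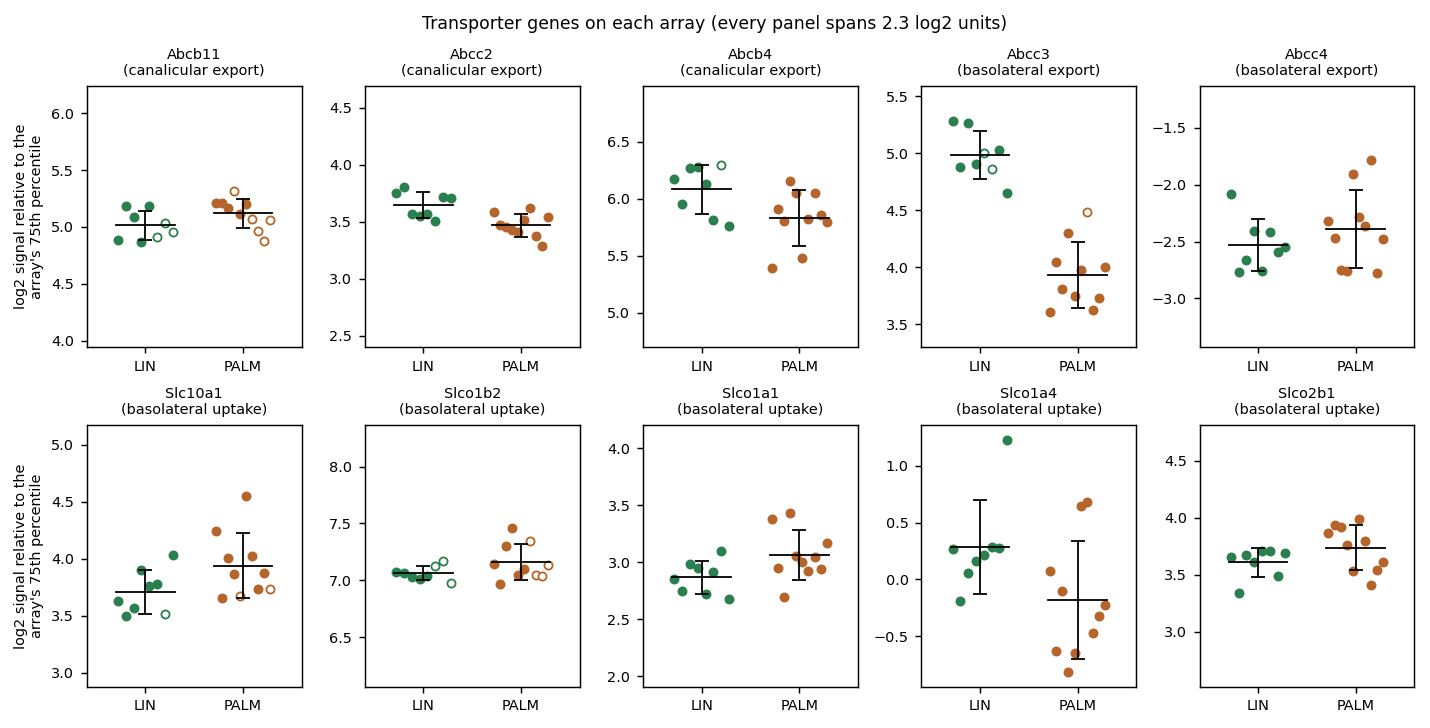
Level of each transporter on each array, LIN left of PALM, as log2 signal relative to the array's 75th percentile; each panel spans the same number of log2 units. Points are livers (open where the spot was marked by the image software), lines are means and bars are SD; Abcc3 is the panel in which the LIN points all lie above the PALM points.

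The plot of levels by array sets Abcc3 beside the other members, in which the groups overlap. For Slc10a1 and Slco2b1 it shows the probe listing Slc10a1 alone and the brighter of the Slco2b1 probes.

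Abcc4 (MRP4), the other basolateral exporter, carries bile acids together with glutathione, and cyclic nucleotides. Its probe lies at chr14:118882104-118882163 (minus strand, mm9). It was dim: levels were −2.77, −2.57 and −2.08 (lowest, median, highest) in LIN livers and −2.78, −2.41 and −1.78 in PALM livers, and the spot was well above background on 7 of 8 LIN and 10 of 10 PALM arrays. The groups overlapped over almost their whole range. The difference was −0.14 ± 0.14 (95% interval −0.43 to 0.14, adjusted p = 0.794, limma). Within slides it ran between −0.66 on slide 1 and 0.22 on slide 3, lower on LIN on 3 of 5 slides. A difference between Abcc3 and Abcc4 in their response was not tested.

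Abcc2 (MRP2), the canalicular pump for bilirubin glucuronide and glutathione conjugates, had levels of 3.51, 3.64 and 3.81 in LIN livers (lowest, median, highest) and 3.28, 3.46 and 3.62 in PALM livers. The groups overlapped, with 4 of 8 LIN livers above the highest PALM liver and all 8 above the PALM median. The difference of 0.18 ± 0.06 (1.13-fold, 95% interval 0.05 to 0.31) had a p of 0.00823 by limma and did not pass after adjustment (adjusted p = 0.262). It was higher on LIN on 5 of 5 slides, by 0.10 to 0.29. The Abcc2 probe lies at chr19:43912079-43912138 (plus strand, mm9).

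Abcb4 (MDR2) moves phosphatidylcholine into the outer leaflet of the canalicular membrane, from which bile acids take it up. With all spots its levels were 5.76, 6.15 and 6.30 in LIN livers, against 5.39, 5.84 and 6.16 in PALM livers, so that 4 LIN livers exceeded the highest PALM liver. The difference was 0.22 ± 0.11 (95% interval −0.02 to 0.46, adjusted p = 0.536, limma), and 0.25 ± 0.11 with the 1 marked LIN spot kept (adjusted p = 0.405). It was higher on LIN on 4 of 5 slides, by up to 0.41, and −0.06 on slide 5. Its probe lies at chr5:8959108-8959167 (plus strand, mm9).

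Abcb11, the bile salt export pump, drives most of the bile-acid-dependent flow of bile. Its spot was marked on 3 LIN and 5 PALM arrays, so too few values were left for the test without them. With all spots kept, levels were 4.87, 5.00 and 5.18 in LIN livers and 4.88, 5.14 and 5.31 in PALM livers. The groups overlapped, with 4 PALM livers above the highest LIN liver. The difference was −0.10 ± 0.07 (95% interval −0.25 to 0.04, adjusted p = 0.634, limma with marked spots kept), lower on LIN on 4 of 5 slides. Its probe lies at chr2:69076365-69076424 (minus strand, mm9).

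Slc10a1 (NTCP) is the sodium-dependent carrier that takes conjugated bile acids from portal blood. On its own probe, levels with all spots were 3.50, 3.69 and 4.03 in LIN livers, against 3.65, 3.87 and 4.55 in PALM livers. The groups overlapped, although 4 LIN livers lay below the lowest PALM liver and 2 PALM livers above the highest LIN liver. The difference was −0.26 ± 0.13 (95% interval −0.53 to 0.01, adjusted p = 0.491, limma over all probes, n = 7 LIN and 8 PALM), and −0.23 ± 0.12 with the marked spots kept (adjusted p = 0.489). Within slides it was −0.36, −0.39, −0.20 and −0.24 on slides 1 to 4, and 0.22 on slide 5.

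The other Slc10a1 probe was saturated on 7 of 8 LIN and 10 of 10 PALM arrays. A saturated spot gives only a bound, so its value after scaling (0.14 ± 0.11, adjusted p = 0.743, limma; −0.0009 with quantile scaling) is no reading of Slc10a1. Being the brightest probe of that name, it stood for Slc10a1 in the comparison over all genes, where it was not called.

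**Figure D2:**
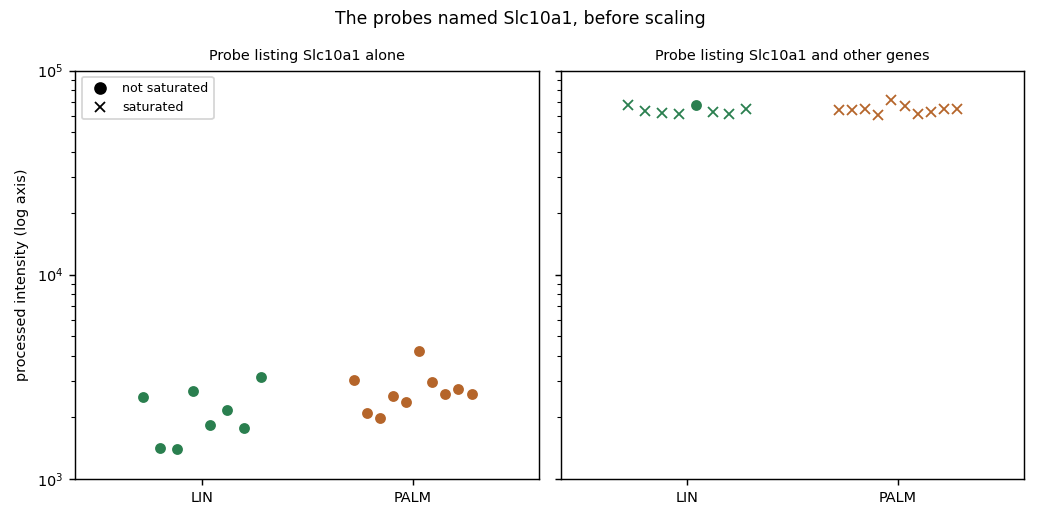
Processed intensity (log axis, arbitrary units) of the probe listing Slc10a1 alone (left) and of the probe that lists further genes (right) on each array, LIN left of PALM within each panel; crosses are saturated spots. The right-hand probe was saturated on all arrays but 1, and no spot of the left-hand probe was.

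The plot of the unscaled Slc10a1 intensities shows the range each probe covered: spots on the probe that lists other genes read 60796 to 71638 units, and spots on the probe listing Slc10a1 alone read 1397 to 4216 units.

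Among the organic anion transporting polypeptides, which take up bilirubin, thyroid hormones, statins and unconjugated bile acids, values went in both directions. Slco1b2, the mouse relative of the human liver carriers OATP1B1 and OATP1B3, had levels of 6.98, 7.05 and 7.17 in LIN livers and 6.97, 7.12 and 7.46 in PALM livers with all spots. Its spot was marked on 3 LIN and 4 PALM arrays, and with those kept the difference was −0.10 ± 0.07 (95% interval −0.24 to 0.05, adjusted p = 0.672, limma). It was lower on LIN on 4 of 5 slides. The LIN values lay within the range of the PALM values. Its probe lies at chr6:141634476-141634535 (plus strand, mm9).

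Slco1a1, a carrier of steroid sulfates and bile acids, had levels of 2.68, 2.89 and 3.10 in LIN livers and 2.70, 3.03 and 3.44 in PALM livers. The groups overlapped, with 3 PALM livers above the highest LIN liver. The difference was −0.19 ± 0.09 (95% interval −0.39 to 0.0012, adjusted p = 0.496, limma). Within slides it ran between −0.38 and 0.02, and was lower on LIN on 4 of 5.

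Slco1a4, which takes up digoxin and bile acids and is known in mouse liver as a target of the xenobiotic receptor PXR, ran the other way. Levels were −0.19, 0.24 and 1.22 in LIN livers, against −0.81, −0.27 and 0.68 in PALM livers. The groups overlapped. All 8 LIN livers lay above the PALM median, and 1 above the highest PALM liver. The difference of 0.47 ± 0.21 (1.38-fold, 95% interval 0.02 to 0.91) did not pass (p = 0.0402, adjusted p = 0.463, limma). It was 0.21, 0.32, 0.56 and 0.18 on slides 1 to 4 and 1.495 on slide 5, where the single LIN liver was the one at 1.22. Without that liver the overall difference was 0.33 ± 0.19 (adjusted p = 0.528, limma).

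Slco2b1, a carrier of steroid sulfates and prostaglandins, had levels of 3.34, 3.66 and 3.71 in LIN livers and 3.41, 3.78 and 3.99 in PALM livers on its brighter probe. On that probe 6 PALM livers exceeded the highest LIN liver, while the lower ends overlapped. The differences were −0.13 ± 0.08 (adjusted p = 0.658, limma over all genes) on the brighter probe and −0.24 ± 0.13 (adjusted p = 0.573, limma over all probes) on the other. Each was lower on LIN on 4 of 5 slides.

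**Figure D3:**
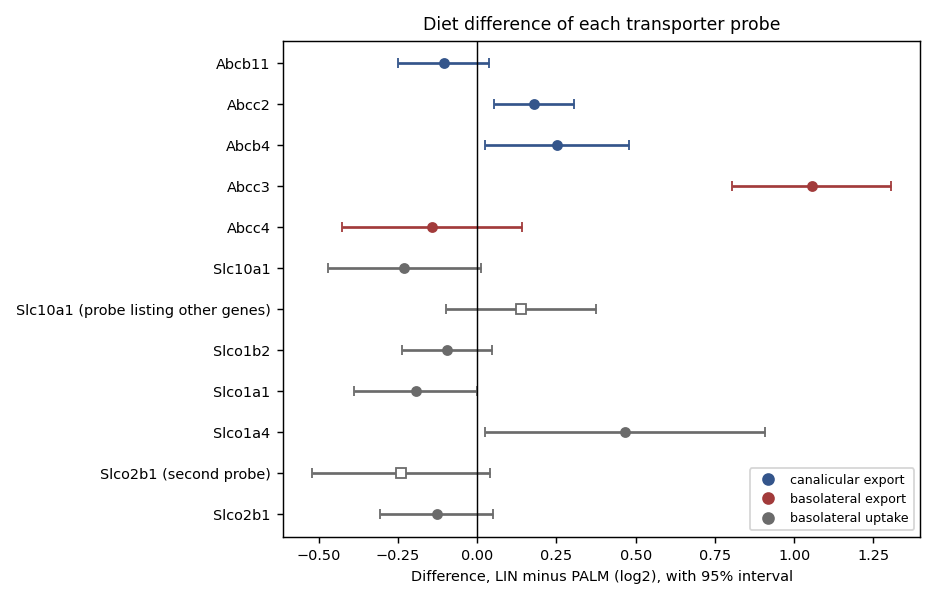
Difference LIN minus PALM (log2) of each member probe with its 95% interval from limma, marked spots kept, coloured by membrane and direction of transport; open squares are the saturated probe that lists further genes beside Slc10a1, which gives no reading of a gene, and the second Slco2b1 probe. The Abcc3 point, at 1.06 (0.80 to 1.31), lies to the right of every other point, and the Slco1a4 interval, which ends at 0.91, reaches into its interval.

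Setting the membranes side by side, as in the plot of differences by probe, showed no common direction on either. With marked spots kept and Slc10a1 read from its own probe, the median difference was 0.18 over the 3 canalicular exporters, 0.46 over the 2 basolateral exporters and −0.13 over the 5 basolateral uptake carriers, beside −0.0017 over all genes. The basolateral export median is the midpoint of Abcc3 (1.06) and Abcc4 (−0.14) and describes neither. Among the canalicular exporters, Abcc2 and Abcb4 were above 0 and Abcb11 below. Among the uptake carriers, 1 of 5 (Slco1a4) was above 0. Over all 10 members 4 were above 0 and the median was −0.10. Reading Slc10a1 from its own probe was chosen after the data had been seen. With marked spots left out and the saturated probe in its place, 5 of the 8 members tested were above 0, with a median of 0.16, and the uptake median was 0.0052. With marked spots kept and that probe in place, 5 of 10 were above 0, with a median of 0.02. The sign of the members' median therefore depended on these choices. A difference between the membranes was not tested.

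**Figure D4:**
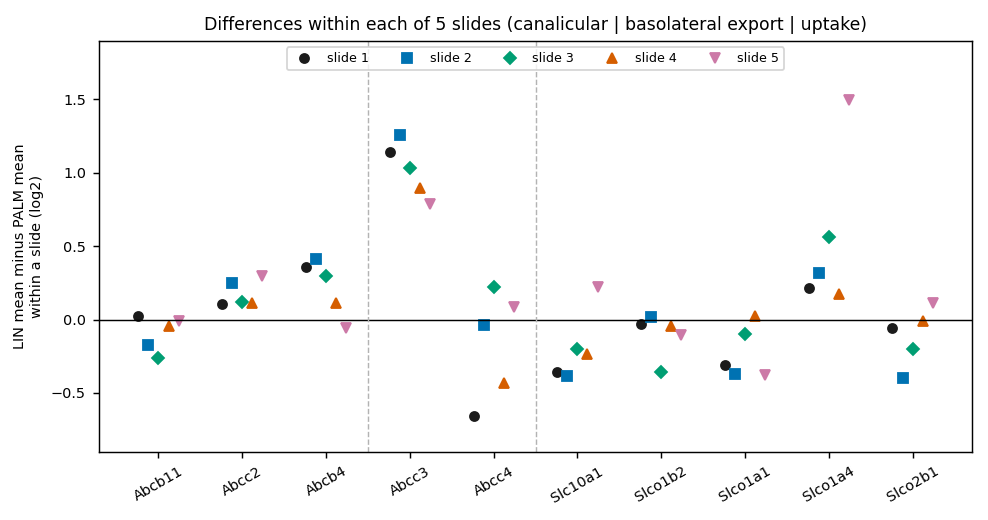
LIN mean minus PALM mean (log2) of each transporter within each of the 5 slides, marked spots kept, grouped into canalicular exporters, basolateral exporters and uptake carriers. Abcc3 lies between 0.79 and 1.26 on every slide; Abcc2 and Slco1a4 are above 0 on every slide, and the remaining genes lie on both sides of 0.

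The plot of differences within slides shows the direction of each member on each slide. Of the 10 members, 3 (Abcc3, Abcc2 and Slco1a4) were higher on LIN on all 5 slides, and none was lower on all 5. The share of all genes that kept a direction on all 5 slides was not determined, so this count is a description. Abcc2 and Slco1a4 did not pass the test. The Slco1 genes of chromosome 6 did not share a direction: in the order of the assembly GRCm38.p6, Slco1b2 (−0.10 with marked spots kept), Slco1a4 (0.47) and Slco1a1 (−0.19) follow each other, and Slco1c1, Slco1a6 and Slco1a5 of the same stretch were too dim to be tested.

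Members also differed in how much livers on one diet varied. The smallest SD in LIN livers was that of Slco1b2 (0.06, against 0.16 in PALM livers), and the smallest in PALM livers was that of Abcc2 (0.11 in LIN livers and 0.10 in PALM livers). The largest SD in both diets was that of Slco1a4, with 0.41 in LIN livers and 0.52 in PALM livers (n = 8 and 10, all spots kept). The Abcc2 difference of 0.18 was thus larger than its SD in either diet, whereas the Slco1a4 difference of 0.47 was smaller than its SD in PALM livers.

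After each gene was centred on its diet mean, Pearson correlations between members over the 18 arrays ran between −0.68 and 0.77, with a median of 0.07 over the 45 pairs, each member standing for 1 probe. The highest was between the uptake carriers Slc10a1 and Slco1a4 (0.77, Spearman 0.76), although their diet differences had opposite signs. It was 0.85 with slide removed as well, and 0.59 without the 2 arrays farthest from the median of Slc10a1. The lowest was between Slc10a1 and the canalicular exporter Abcb4 (−0.68, Spearman −0.54; −0.83 with slide removed and −0.48 without the 2 arrays farthest in Abcb4). Abcb4 also ran against Slco1a4 (−0.64, Spearman −0.66). The 9 pairs that included Abcc3 ran between −0.17 with Abcc4 and 0.54 with Slco1b2, with a median of 0.24. These pairs were picked from the 45 after their values were seen, the points share array, scaling and slide, and the correlations are a description.

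The genes whose values ran most like Abcc3 within the diets were found by centring each gene on its diet mean, over the 15 arrays with an unmarked Abcc3 spot. Among 12389 genes, the highest Pearson correlations belonged to Pdia3 (0.86), a disulfide isomerase of the endoplasmic reticulum, the histone gene H3c15 (0.86), Aldh3a2 (0.86), a fatty aldehyde dehydrogenase, Gfm2 (0.85), a mitochondrial ribosome recycling factor, and Sdf2l1 (0.84), a protein of the endoplasmic reticulum. With slide removed as well they were 0.81 to 0.86. These too share arrays and slides and are a description. They were picked as the highest of 12389, and how high the highest would stand among unrelated genes was not determined. Of the 5, Aldh3a2 also rose with diet (0.94 ± 0.14, adjusted p = 0.00217, limma), and the others did not pass.

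Beyond the members, 29 genes were listed as other carriers, mostly of bile, organic anions and cations. They included Slc27a2 and Slc27a5, which are enzymes. Of the 29, 25 could be tested. None rose or fell (0 called by limma, with 2 at an unadjusted p under 0.05), and their median difference was 0.01. Slc51a and Slc51b, the subunits of the basolateral bile acid exporter OST, were too dim. The smallest p belonged to Abcc6, a basolateral exporter needed for hepatic release of ATP, with levels of 3.78, 3.96 and 3.99 in LIN livers, against 4.04, 4.16 and 4.29 in PALM livers (7 unmarked values each). These unmarked values did not overlap, as for 0.0627% of all genes that were lower on LIN. With marked spots kept the ranges met. The Abcc6 difference was −0.23 ± 0.07 (adjusted p = 0.166, limma), and 0.087 ± 0.33 where all probes of the gene were averaged. Slc22a5, the carnitine carrier OCTN2, had a difference of 0.54 ± 0.19 (adjusted p = 0.279, limma), and Slc10a7, an orphan relative of Slc10a1, one of 0.23 ± 0.12 (adjusted p = 0.514, limma). Slc10a7 was dim, with means of −3.87 in LIN livers and −4.10 in PALM livers.

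Of 27 receptors, bile acid enzymes and receptor targets, 25 could be tested, and 3 rose and 1 fell. Across all genes 0.57% rose and 0.188% fell. Of the 25, 9 had an unadjusted p under 0.05, as did 10.2% of all genes. The list was chosen with earlier results of these data known, so these counts are a description. The targets Cyp3a11 (2.15 ± 0.16, adjusted p = 2.62e-06), Cyp4a10 (1.59 ± 0.23, adjusted p = 0.00217) and Nqo1 (0.61 ± 0.13, adjusted p = 0.0301) rose, and Cyp7a1, which starts bile acid synthesis, fell (−0.998 ± 0.22, adjusted p = 0.0389), all by limma. The levels of Cyp3a11 did not overlap between the diets, at 7.37, 7.57 and 7.74 in LIN livers and 4.94, 5.29 and 6.11 in PALM livers. These were 7 LIN and 8 PALM unmarked values, and such groups, higher on LIN, were found for 0.157% of all genes. The receptors themselves did not pass: the difference was −0.06 for the bile acid receptor Nr1h4 (FXR), 0.06 for Nr1i2 (PXR), 0.17 for Nr1i3 (CAR), 0.29 for Ppara and −0.03 for Nfe2l2 (NRF2), which were named for their roles after their values were seen. Whether any of them bears on Abcc3 was not tested. With marked spots kept, a brighter probe stood for Ppara, and its difference was 0.15 ± 0.07 (adjusted p = 0.455, limma). Nqo1 was dim, with means of −2.27 in LIN livers and −2.88 in PALM livers. The Nqo1 difference was 0.15 ± 0.11 (adjusted p = 0.999, limma) with another background correction, normexp. The Cyp7a1 call was lost when slide entered as a fixed block, at −0.96 ± 0.22 (limma, adjusted p = 0.0536). With marked spots kept all 27 could be tested, and 4 rose and 1 fell. The gene added was Cyp4a14 (2.92 ± 0.34, adjusted p = 0.000205, limma), the highest difference of all genes in that fit.

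**Figure D5:**
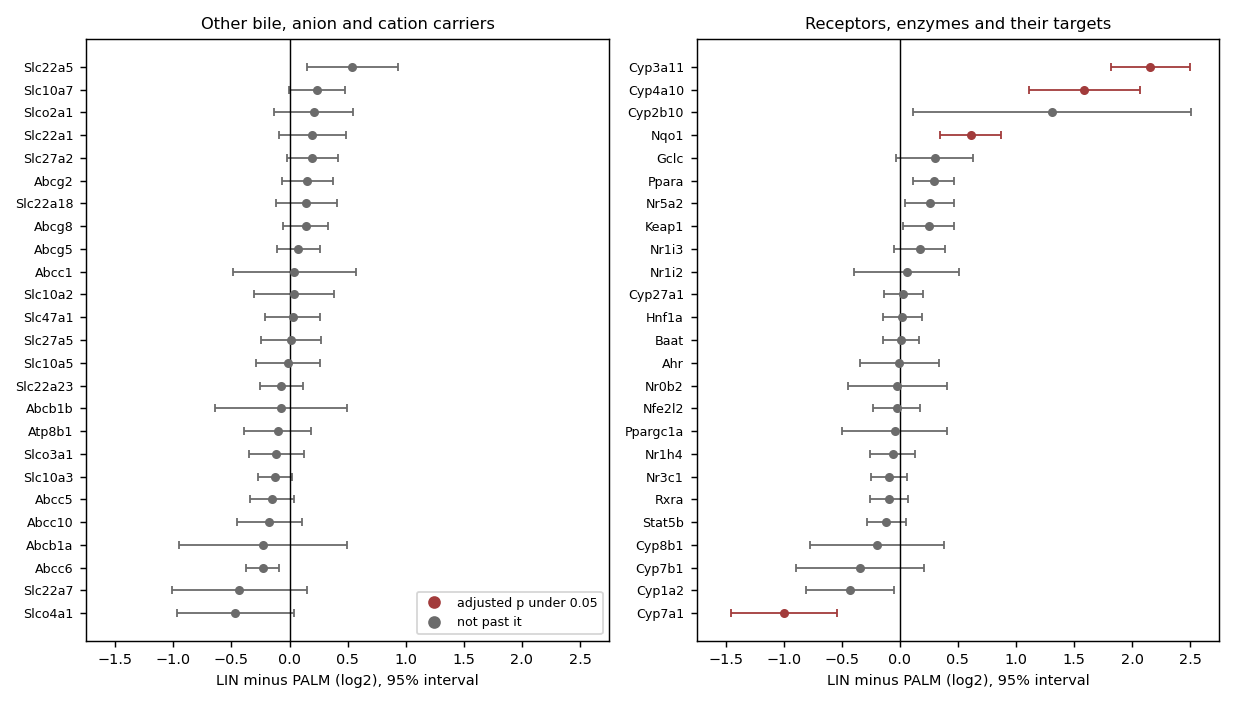
Difference LIN minus PALM (log2) with its 95% interval from limma for the other carriers (left) and for receptors, bile acid enzymes and receptor targets (right); red marks an adjusted p under 0.05. No carrier on the left is red, and 4 genes on the right are.

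The plot of the other genes shows that the carriers lay between −0.47 and 0.54. In size, the Abcc3 difference exceeded that of each of the 25 other carriers tested and of each other member.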

How the data were processed

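RNA of 18 livers (8 LIN, 10 PALM; 1 µg labelled with Cy3) was hybridised to 1-colour Agilent arrays. Per the file headers, the authors' spot intensity values come from Agilent Feature Extraction 9.5.3.1. The processed signal used here is corrected for background on each array without scaling across arrays. Feature Extraction 9.5 and limma are named in the submitters' processing notes. The authors' deposited value table holds log2 values; how it was scaled is not stated, so it was tried only as an alternative.

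Values were log2 processed signal minus the array's 75th percentile over non-control probes (117.5 to 204.1 intensity units). Marked spots (called non-uniform or population outlier by the image software, 238 to 1703 per array) were left out, saturated spots were kept and spots of a probe averaged. A probe was kept if 8 or more arrays had it well above background and 6 or more per diet had a value. Each gene was represented by its brightest kept probe. Older gene names were replaced with those of a RefSeq table (GRCm38.p6, names and gene order only; 26055 probes by accession, 3195 by symbol, 930 by synonym, 9249 kept the file's name). Probe positions and sequences are the file's, build mm9.

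The LIN and PALM groups were compared by limma (version 3.58.1, R 4.3.3; lmFit, then eBayes, without covariates, two-sided). Benjamini-Hochberg adjustment ran over all 15951 genes or 19510 probes, with a threshold of 0.05. The fit was repeated with marked spots kept (16544 genes). The procedure was tested on simulated data. Alternatives were another background correction, other scalings and filters, another probe rule, slide and replicate number as blocks, other variance models, the authors' table and each array left out. Named genes are all members, the called genes and the 3 of smallest p in each further list, and the 5 genes most like the member of smallest p. The members and lists were chosen with earlier results of these data known. Mice are taken as the replicates, 1 array each. As the labels do not give the cages, the fit takes cage mates as independent. If cage mates are not, its SE and p may be too small. The headers give no barcode for the slide 1 arrays, and these were treated as sharing a slide on the basis of their common scan.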

Additional observations from a re-analysis of the deposited data

Results flagged for a closer look

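The level of each member probe was checked for an array standing apart from the rest of its diet. Of 24 such groups, 2 held one, and chance gives about 1 in 20. The groups share arrays and the Slco2b1 probes overlap, so the groups are not independent.

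Slco1a4 stood at 1.22 in LIN replicate 8, on slide 5, where the nearest LIN liver was at 0.28 and the lowest at −0.19 (n = 8). Its spot was neither marked nor saturated, and without this liver the difference was 0.33 in place of 0.47.

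The Slc10a1 probe that lists further genes stood at 9.04 in PALM replicate 3, on slide 3, where the nearest PALM liver was at 8.65 and the lowest at 8.33 (n = 10). The probe was saturated on 10 of 10 PALM arrays, so this value says nothing of the transcript in that liver.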

How the results depend on the processing

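Abcc3 was called in 19 of 20 other settings (1.02 to 1.18) and with each array left out (1.08 to 1.205). Some of these could not move it. Reading Slc10a1 from its own probe left the fits of Abcc3, Cyp7a1 and Nqo1 unchanged, whether marked spots were kept or not. Abcc3 has a single probe, so averaging over probes could not alter its difference. Its spot was already left out on LIN replicates 5 and 6 and PALM replicate 7, and dropping these arrays gave 1.13 again. Such fits are no separate check. The number of all genes called moved more: it was 121, and 68 with normexp, 44 with no filter on dim probes, 200 with slide as a random block, and 51 to 143 with an array left out. After the data had been seen, further settings were added, giving 42 with scaling over unmarked spots, 186 with marked spots kept and slide as a fixed block, 30 without slide 1 and 21 without slides 4 and 5. The receptor and target list had 2 called genes with no filter, without slide 1 and without slides 4 and 5, and 2 to 4 with an array left out. The causes were not tested.

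Replicate numbers were shared by 8 pairs, whose correlations over genes were −0.24 to 0.50 (5 of 8 over 0.1), and 2 of 8 arrays correlated best with their own number. Of the 8 pairs 6 lay on one slide, among them the 5 over 0.1, and the labels give the number no meaning, so the numbers were not taken as a pairing. With the replicate number as a block, 18 genes, 0 members and 1 gene of the receptor and target list were called, with Abcc3 at 1.12 ± 0.17 (adjusted p = 0.094).

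The basolateral export median was 1.13 over genes above background on all arrays, where Abcc4 drops out. Signs turned for Slc10a7 (−0.001 with normexp) and Abcc6 (0.087 ± 0.33 over the mean of its probes). They turned too for Slc10a1, positive on its saturated probe. Slc10a1 was −0.0009 with quantile scaling, −0.0066 in the authors' deposited table and −0.20 ± 0.40 over the mean of its probes. On its own probe it was −0.26 or, with marked spots kept, −0.23. Marked spots were left out of these means, so the probes averaged could differ between arrays. From the brightest probe the SE was 0.07 for Abcc6 and 0.11 for Slc10a1. Cyp7a1 kept its call in 15 of 20 settings and with 8 of 18 arrays left out, and lost it with slides blocked (−0.96, adjusted p = 0.0536) and with the replicate block (−0.96, adjusted p = 0.078). Nqo1 kept its call in 13 of 19 settings and with 10 of 18 arrays left out, and was 0.15 (adjusted p = 0.999) with normexp. Signal limited Abcc4, Slc51a and Slc51b. Nqo1 and Slc10a7 were dim too, with means of −2.27 and −3.87 in LIN livers and −2.88 and −4.10 in PALM livers.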
